A study of Rattus norvegicus with 12 samples.

Results

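The genes described here are 9 members of the interleukin-6 (IL-6) family of cytokines and of the path through which it signals. They were the ligand genes Il6, Lif and Il11, the receptor genes Il6st, Il6r, Osmr and Lifr, the transcription factor gene Stat3 and the feedback inhibitor gene Socs3. They were chosen by gene name from 22442 gene records, each a locus assembled from the reads or an annotated rat gene. The 9 symbols stood on 11 records, since Il6st and Lifr had a second record each, and the record with the higher average was used. Values were FPKM, fragments mapped to a gene, scaled by transcript length and by the total mapped in the library. All 9 were among the 11611 records that averaged 1 FPKM or more across the libraries and were therefore tested.

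Fibroblast-like synoviocytes (FLS), the fibroblasts that line the joint, were grown from the synovium of male Sprague Dawley rats with adjuvant arthritis (AA), which had been injected with complete Freund's adjuvant in a hind paw. The cells were used at passage 3, and poly(A) RNA was sequenced in 12 libraries. The 3 FCA libraries came from cells kept in DMEM alone, and AT10, AT1 and AT01, with 3 libraries each, from cells given taurochenodeoxycholic acid (TCDCA), a taurine-conjugated bile acid, at 10, 1 and 0.1 µM for 12 h. The FCA control is thus itself made of cells of arthritic joints, and cells of healthy joints were not analysed here. The age of the rats is not stated. Nothing in the labels says whether the 3 libraries of a group came from separate cultures or animals, so the p-values measure the spread between libraries, which may be technical. In bulk RNA, fewer cells of a type and less RNA per cell cannot be told apart.

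Cytokines of the IL-6 family act through receptor complexes that share gp130, the protein of Il6st. Each ligand first meets a chain of its own: IL-6 binds the receptor of Il6r, IL-11 that of Il11ra1, and LIF that of Lifr, while oncostatin M can use the chain of Osmr. Gp130 then activates Janus kinases, which phosphorylate STAT3. STAT3 enters the nucleus and switches on target genes, among them Socs3, whose protein binds gp130 and stops the signal. Cells that lack the IL-6 receptor can still answer IL-6 when a shed, soluble form of that receptor is present. Synovial fibroblasts are a known source of IL-6 in arthritic joints.

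Markers of FLS were present and those of most other cells were low. Of 15 markers of FLS, 13 had a record used here and 13 averaged 1 FPKM or more, from 3376 FPKM for S100a4 down to 4.33 FPKM for Vcam1. All 7 endothelial and all 6 lymphocyte markers with a record averaged under 1 FPKM, with Tie1, Cd3e and Cd3d listed at 0 in every library, as did 5 of 7 macrophage markers, where Mrc1 averaged 0.0025 FPKM and Cd14 was highest with 13.8 FPKM. Chondrocyte markers reached 1 FPKM in 4 of 8, led by Col11a1 with 31.2 FPKM, while Col2a1 averaged 0.0025 FPKM. The 5 smooth muscle and pericyte markers ran from 4.18 FPKM for Myh11 to 245 FPKM for Acta2. The libraries summed to between 284210 and 309696 FPKM, and between 11471 and 11679 records reached 1 FPKM in each. The number of reads behind a value is unknown.

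The 2 ligand genes with the largest average differences between TCDCA and FCA, in opposite directions, were Il6 and Il11. The DNA before their gene starts is shown because the motifs in it differ. The stretches are the last 200 bases before the RefSeq gene start in the rat build GRCr8, 5′ to 3′ on the strand of the gene, at chr4:5894576-5894775 on the minus strand for Il6 and chr1:78098422-78098621 on the plus strand for Il11. Capitals mark the motifs found.
Il6: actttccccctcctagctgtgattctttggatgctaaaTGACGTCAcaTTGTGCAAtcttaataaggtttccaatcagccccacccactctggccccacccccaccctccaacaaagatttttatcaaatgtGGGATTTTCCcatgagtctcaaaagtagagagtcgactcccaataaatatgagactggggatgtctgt
Il11: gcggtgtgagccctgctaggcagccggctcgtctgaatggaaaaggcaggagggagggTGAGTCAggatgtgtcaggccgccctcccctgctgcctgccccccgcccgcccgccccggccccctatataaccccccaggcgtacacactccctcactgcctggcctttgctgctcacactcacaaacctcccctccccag

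In all, 5 motifs were searched on both strands, in windows that ran from 250 bases before to 50 bases after the start: the cAMP response element (CRE) TGACGTCA, the C/EBP motif TTNNGCAA, the AP-1 motif TGANTCA, the STAT motif TTCNNNGAA and the NF-kB consensus. The Il6 window held a CRE at 162 to 155 bases before the start, a C/EBP match at 152 to 145 and an NF-kB match at 68 to 59. Among all 33469 windows of this length, 1.83% held the CRE, 10.6% the C/EBP motif and 5.02% the NF-kB consensus. The Il11 window held none of these and had an AP-1 match at 142 to 136 bases before the start. AP-1 matches stood in 7.33% of all windows and, among the members, also in that of Osmr. The STAT motif, found in 8.87% of all windows, was not in the window of any of the 8 members that had one, Socs3 included. DNA farther from the RefSeq gene start, or before another start of the same gene, was not searched. A window without a match therefore does not show that the promoter lacks the site. No matches overlapped each other, and a match of letters does not show that a factor binds.

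The members differed widely in level. Averaged over the 12 libraries, the order in FPKM, which is per length, was Il6 with 143.6, Il6st with 62.6, Lif with 44.7, Stat3 with 42.5, Osmr with 27.7, Il11 with 23.5, Socs3 with 19.4, Lifr with 1.56 and Il6r with 1.15. Il6 stood at percentile 97.2 of the tested records and Il6r at 3.07. Every library had more Il6 than Il6st, more Stat3 than Osmr and more Socs3 than Lifr, and the ranges of these 3 pairs of neighbours did not overlap. The ranges of the other 5 pairs of neighbours overlapped, although Lifr exceeded Il6r in 12 of 12 libraries and Il6st exceeded Lif in 11. FLS thus held much RNA of the shared chain and little of the chain specific to IL-6: the ratio of Il6st to Il6r, in FPKM, was between 39.5 and 99.4 with a median of 51.8. The ratio of Osmr to Lifr lay between 13.3 and 24.6. None of the 9 genes split into separate levels among the libraries.

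**Figure D1:**
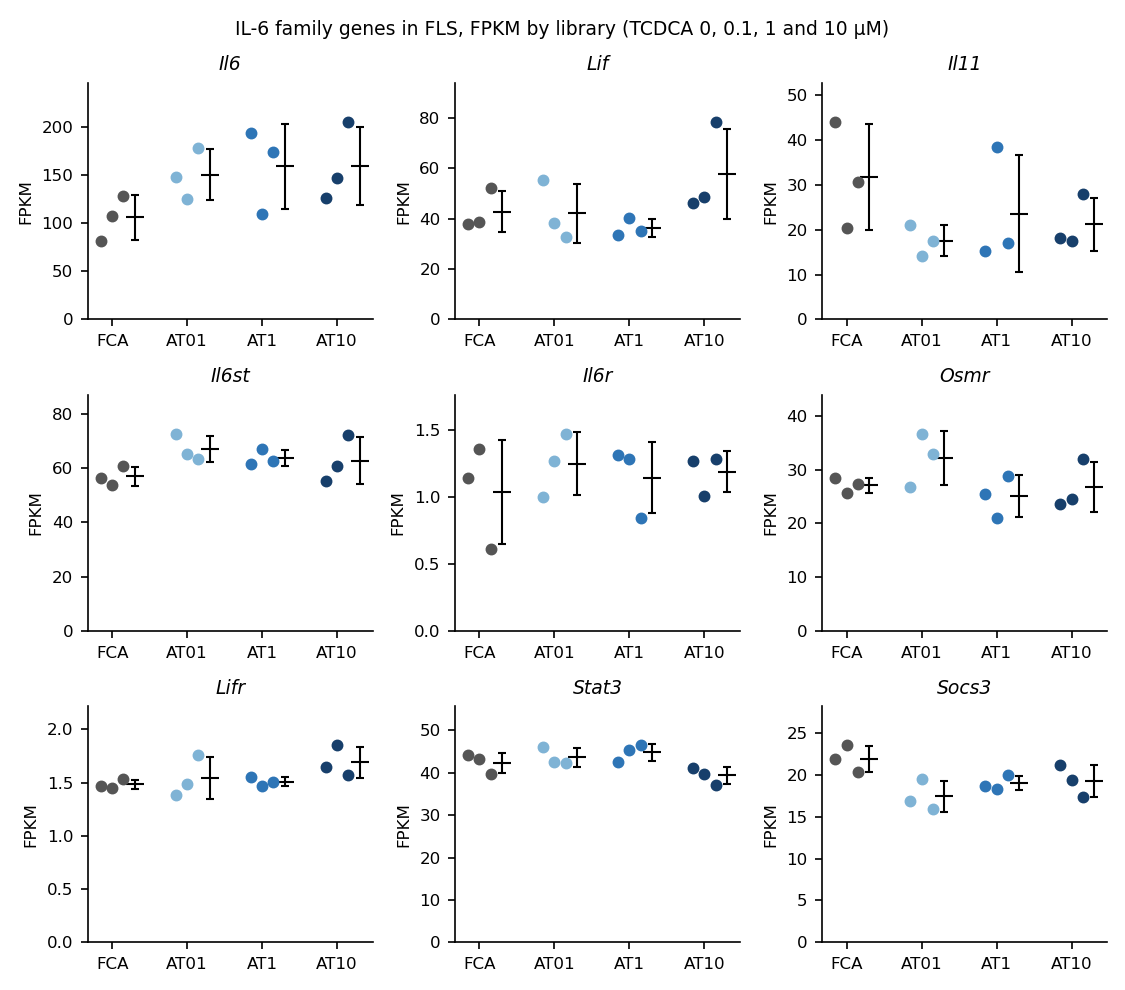
FPKM of the 9 members by library (vertical axes, linear from 0), in the groups FCA, AT01, AT1 and AT10 (0, 0.1, 1 and 10 µM TCDCA). Dots are single libraries, and the horizontal mark with its bar is the mean ± SD of the 3 libraries of a group. Il6 means are 106 FPKM in FCA and 150 to 159 FPKM at the 3 doses, Socs3 is highest in FCA with 21.9 FPKM, and Lif has 1 high library, with 78.3 FPKM in AT10.

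Il6, the founding ligand, had 81.6, 107.8 and 128.1 FPKM in the FCA libraries. It had 147.9, 125.3 and 178.1 FPKM in AT01, and 193.8, 109.3 and 173.9 FPKM in AT1. In AT10 the values were 126.1, 146.9 and 204.6 FPKM. At each dose 2 of 3 libraries lay above every FCA library and the other lay within the FCA range, so that no dose was free of overlap. The means were 106 ± 23.3 FPKM (SD, n = 3) in FCA, 150 ± 26.5 FPKM in AT01, 159 ± 44.1 FPKM in AT1 and 159 ± 40.7 FPKM in AT10.

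The log2 fold change of Il6 against FCA, here and below the difference of means of log2(FPKM + 1) fitted with limma over all tested records, was 0.51 in AT01 (SE 0.21), 0.57 in AT1 (SE 0.27) and 0.58 in AT10 (SE 0.24). The 3 values lay close together from the lowest to the highest dose, and none passed the test (Benjamini-Hochberg adjusted p = 0.720, 0.471 and 0.426). Over the 9 TCDCA libraries the mean was 156 ± 33.1 FPKM (SD, n = 9) and 6 of 9 libraries exceeded every FCA library. That log2 fold change was 0.55 (SE 0.19, 95% interval 0.13 to 0.98), with an adjusted p of 0.339. A two-sided exact permutation test of this one gene gave p = 0.0364, where the smallest possible p is 0.00455. The 3 dose comparisons and the joint comparison share the FCA libraries, so they are not independent.

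Il11, a ligand that signals through gp130 in mesenchymal cells and is known from fibrosis, had 43.9, 20.3 and 30.7 FPKM in FCA. It had 21.0, 14.1 and 17.5 FPKM in AT01, 15.1, 38.5 and 16.9 FPKM in AT1, and 18.1, 17.4 and 27.9 FPKM in AT10. Most TCDCA libraries were below the FCA mean of 31.6 ± 11.8 FPKM (SD, n = 3), but 1 FCA library was itself at 20.3 FPKM, and the second AT1 library was above 2 of the 3 FCA libraries. The log2 fold change was -0.77 in AT01 (SE 0.30, adjusted p = 0.720), -0.47 in AT1 (SE 0.43, adjusted p = 0.666) and -0.52 in AT10 (SE 0.32, adjusted p = 0.541). For the 9 TCDCA libraries it was -0.59 (SE 0.28, 95% interval -1.21 to 0.03, adjusted p = 0.440; exact permutation test, p = 0.0727). This value was -0.32 without FCA replicate 1 and -0.86 without FCA replicate 2, so it rested on which FCA libraries were kept.

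Since Il6 was on average higher and Il11 lower under TCDCA, the ratio of Il6 to Il11 in FPKM was examined as a description. It lay between 1.86 and 5.31 in FCA, between 7.03 and 10.2 in AT01 and between 6.95 and 8.44 in AT10, so that AT01 and AT10 did not overlap FCA. In AT1 it ran from 2.84 to 12.8 and overlapped FCA. This ratio was singled out after the values were seen and was not tested.

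Lif, the ligand of the LIF receptor, had 37.8, 38.6 and 52.2 FPKM in FCA and 55.3, 38.3 and 32.7 FPKM in AT01. In AT1 it had 33.6, 40.3 and 35.1 FPKM and in AT10 it had 46.2, 48.5 and 78.3 FPKM. Lif showed no common direction: the log2 fold change against FCA was -0.04 in AT01 (SE 0.23), -0.22 in AT1 (SE 0.15) and 0.39 in AT10 (SE 0.24), with adjusted p-values of 0.973, 0.572 and 0.543. The 95% interval in AT10 ran from -0.20 to 0.99, and the value was 0.16 without AT10 replicate 3, the highest library. Over the 9 TCDCA libraries the log2 fold change was 0.04, with an interval from -0.46 to 0.55.

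Il6st, the gene of gp130, had 56.4, 53.7 and 60.6 FPKM in FCA. It had 72.5, 65.1 and 63.4 FPKM in AT01, 61.3, 67.1 and 62.7 FPKM in AT1, and 55.2, 60.9 and 72.0 FPKM in AT10. All 6 libraries of AT01 and AT1 were above the 3 FCA libraries, and in AT10 the lowest was within the FCA range. The differences were small, with log2 fold changes of 0.23 in AT01 (SE 0.08, adjusted p = 0.720), 0.16 in AT1 (SE 0.07, adjusted p = 0.453) and 0.13 in AT10 (SE 0.11, adjusted p = 0.648), the last being 0.03 without AT10 replicate 3. In all, 8 of 9 TCDCA libraries exceeded every FCA library, and the joint log2 fold change was 0.17 (SE 0.08, 95% interval 0.00313 to 0.35, adjusted p = 0.406; exact permutation test, p = 0.0455).

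The chains that pair with gp130 lay close together in the 4 groups. Osmr, which serves oncostatin M, had 28.4, 25.6 and 27.3 FPKM in FCA and between 20.9 and 36.6 FPKM in the TCDCA libraries. Its log2 fold change was 0.23 in AT01, -0.12 in AT1 and -0.03 in AT10, and 0.02 over all TCDCA libraries with an interval from -0.29 to 0.34. Lifr had 1.47, 1.45 and 1.53 FPKM in FCA and 1.65, 1.85 and 1.57 FPKM in AT10, where all 3 libraries were above FCA, at a log2 fold change of 0.11 (SE 0.08, adjusted p = 0.604). In AT1 and AT01 the Lifr values, between 1.38 and 1.76 FPKM, overlapped FCA. The record used for these values held 0 annotated Ensembl transcripts. The second Lifr record, described below, held 1. That record overlapped FCA in AT10 and did not in AT1. Il6r had 1.14, 1.36 and 0.61 FPKM in FCA and between 0.84 and 1.47 FPKM under TCDCA, and its joint interval of -0.15 to 0.38 spans zero. At about 1 FPKM the fold changes of Lifr and Il6r are shrunk by the added 1.

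Stat3, which carries the signal to the nucleus, had 44.1, 43.2 and 39.6 FPKM in FCA and was the steadiest of the abundant members. It had 46.2, 42.4 and 42.3 FPKM in AT01, 42.6, 45.4 and 46.4 FPKM in AT1, and 41.1, 39.8 and 37.2 FPKM in AT10. The AT10 libraries were below all AT1 and all AT01 libraries, but overlapped FCA. Over the 9 TCDCA libraries the log2 fold change against FCA was 0.01, and its 95% interval of -0.14 to 0.16 bounds the average difference in Stat3 RNA.

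Socs3, the feedback inhibitor, had 21.8, 23.5 and 20.3 FPKM in FCA. It had 16.9, 19.5 and 15.9 FPKM in AT01, 18.7, 18.3 and 19.9 FPKM in AT1, and 21.1, 19.4 and 17.3 FPKM in AT10. All 6 AT01 and AT1 libraries and 2 of 3 AT10 libraries were below the lowest FCA library. The log2 fold change was -0.31 in AT01 (SE 0.10, adjusted p = 0.720), -0.19 in AT1 (SE 0.07, adjusted p = 0.441) and -0.18 in AT10 (SE 0.10, adjusted p = 0.513). The Socs3 record, the only one of that name, held 0 annotated Ensembl transcripts, as did the Lifr record used above. In Socs3 the 9 TCDCA libraries had 18.6 ± 1.63 FPKM (SD, n = 9) against 21.9 ± 1.60 FPKM (SD, n = 3) in FCA. The joint log2 fold change was -0.23 (SE 0.08, 95% interval -0.40 to -0.05, adjusted p = 0.339; exact permutation test, p = 0.0136).

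**Figure D2:**
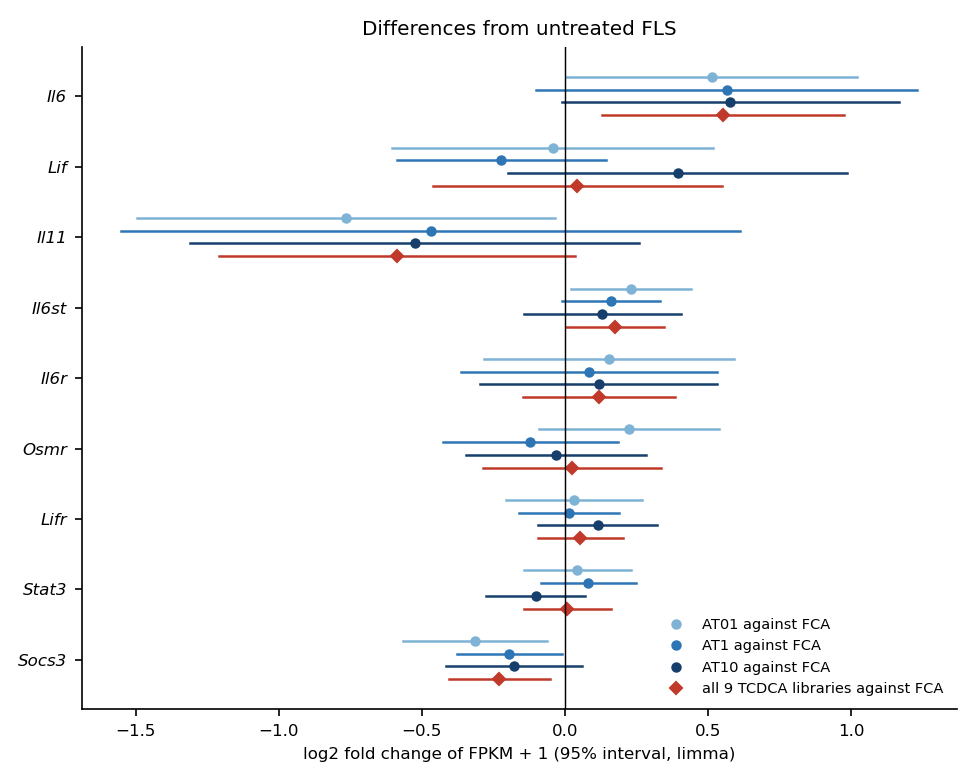
Log2 fold change of FPKM + 1 against FCA (horizontal axis) for the 9 members, with dots for AT01, AT1 and AT10 and a diamond for all 9 TCDCA libraries; bars are 95% intervals of the limma fits. The joint intervals of Il6 (0.13 to 0.98), Il6st (0.00313 to 0.35) and Socs3 (-0.40 to -0.05) do not reach zero, and no adjusted p was under 0.05.

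Counted over the 9 members, 0 had an adjusted p under 0.05 and 0 met the study criterion, which asks for a log2 fold change beyond 1 or -1 together with an unadjusted p under 0.05, in any of the 6 comparisons of 2 groups or in TCDCA against FCA. Among all tested records, the adjusted p called 0.172% in AT10, 0.0947% in AT1, 0.0947% in AT01 and 0.0258% in TCDCA against FCA, and the criterion called 0.706%, 0.62%, 0.758% and 0.491%. At an unadjusted p under 0.05 alone, 4 of 9 members were past the threshold in AT01 against FCA (Il6 and Il6st higher, Il11 and Socs3 lower), where 6.6% of all records were. In AT1 it was Socs3 alone, 1 of 9 beside 11% of all records, and in AT10 it was 0 of 9 beside 11.9%. In TCDCA against FCA it was 3 of 9, Il6, Il6st and Socs3, beside 12%. These counts rested on single libraries. The AT01 count was 0 without FCA replicate 1, 1 without FCA replicate 2 or AT01 replicate 3, and 2 without AT01 replicate 1 or 2, and the TCDCA count was 1 without FCA replicate 1. The AT1 count was 0 without FCA replicate 1 or 2 or AT1 replicate 1 and 2 without FCA replicate 3 or AT1 replicate 2, and the AT10 count was 1 without FCA replicate 2 or 3 or AT10 replicate 1.

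Groups did not overlap for 1 member in AT10 against FCA (Lifr), and for 2 in AT1 and 2 in AT01 (Il6st and Socs3 each time). Over all tested records this held for 19.9%, 19.9% and 14%, and 1 gene more or fewer moves the share of the members by 11.1 percentage points. In TCDCA against FCA 0 of 9 members were free of overlap, beside 2.86%. With 3 libraries against 3 the exact permutation test cannot go below p = 0.1. Over all 4 groups at once, the F test of limma found 0 of 9 members at an adjusted p under 0.05 and 0 at an unadjusted p under 0.05, where 0.0431% and 8.57% of all records were. A slope over the dose ranks also gave 0 of 9 by either p, beside 0% and 11.2% of all records. Its largest value was that of Il6, 0.18 per step (SE 0.08, adjusted p = 0.451).

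Between doses, 3 members had groups without overlap from 1 to 10 µM, 1 from 0.1 to 10 µM and 0 from 0.1 to 1 µM. Lif was higher in AT10 than in AT1 in all 3 libraries, with 57.7 ± 17.9 FPKM against 36.3 ± 3.48 FPKM (SD, n = 3 each) and a log2 fold change of 0.62 (SE 0.22, adjusted p = 0.748). Without AT10 replicate 3 that value was 0.38. Stat3 was lower in AT10 than in AT1, with 39.3 ± 1.95 FPKM against 44.8 ± 1.97 FPKM (log2 fold change -0.18, SE 0.07, adjusted p = 0.748). In this comparison 2 of 9 members, Lif and Stat3, had an unadjusted p under 0.05, beside 6.46% of all records, and 3 of 9 did not overlap, with Lifr the third, beside 13.9%. The log2 fold change of Lifr was 0.10 here and as low as -0.007 among the processing alternatives. The count of 2 was 0 without AT1 replicate 3 and 1 without AT1 replicate 1 or 2 or AT10 replicate 2 or 3. By adjusted p it was 0 of 9, beside 0.258%, and by the criterion of the study 0 of 9, beside 0.594%. Between AT10 and AT01 the groups did not overlap for Stat3 alone, with a log2 fold change of -0.15 (SE 0.08, adjusted p = 0.867), beside 11.1% of all records; 0 of 9 had an unadjusted p under 0.05, beside 4.97%, an adjusted p under 0.05, beside 0.0689%, or met the criterion, beside 0.672%. Between AT1 and AT01, 0 of 9 had groups that did not overlap, beside 8.6%, or passed the unadjusted p, the adjusted p or the criterion, beside 3.43%, 0.129% and 0.568%. Between these doses Il6 differed by 0.05 with an interval from -0.57 to 0.67.

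Socs3 is induced by ligands of this family, so its RNA was set against theirs across the 12 libraries, in 6 relations with the log2 values. Over the 12 libraries the strongest relation was a negative one between Il6 and Socs3, with Pearson's r = -0.66 (permutation test, p = 0.0197, adjusted p = 0.118) and Spearman's rho = -0.68 (p = 0.0187, adjusted p = 0.112). The relation failed the correction over the 6. Without the 2 libraries farthest from the median of Il6, FCA replicate 1 and AT10 replicate 3, r was -0.55 (permutation test, p = 0.101). With the group means taken out it was -0.51, close to the values of Lif and Socs3 (-0.52) and of Il11 and Socs3 (-0.54, opposite in sign to its r over the 12 libraries). Among the 9 TCDCA libraries alone the r of Il6 and Socs3 was -0.41. Groups of 3 libraries are too few for a value of their own.

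The other 5 relations had a smaller r over the 12 libraries, an order that did not hold with the group means taken out. Il6 and Il11 had r = -0.55 (permutation p = 0.0649, adjusted p = 0.195) and rho = -0.38 (permutation p = 0.215, adjusted p = 0.431). Its r was -0.55 without the 2 farthest libraries and -0.37 with the group means taken out, and it ran from -0.29 without FCA replicate 1 to -0.73 without AT10 replicate 3. Lif and Il11 had r = 0.28 and rho = 0.44, Il6 and Lif had r = 0.21 and rho = 0.03, Lif and Socs3 had r = -0.21 and rho = -0.08, and Il11 and Socs3 had r = 0.14 and rho = 0.11. The smallest permutation p of these 4 was 0.154, and 0.431 after adjustment, and without the 2 farthest libraries their r lay between -0.39 and 0.35. None of the 6 relations passed.

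**Figure D3:**
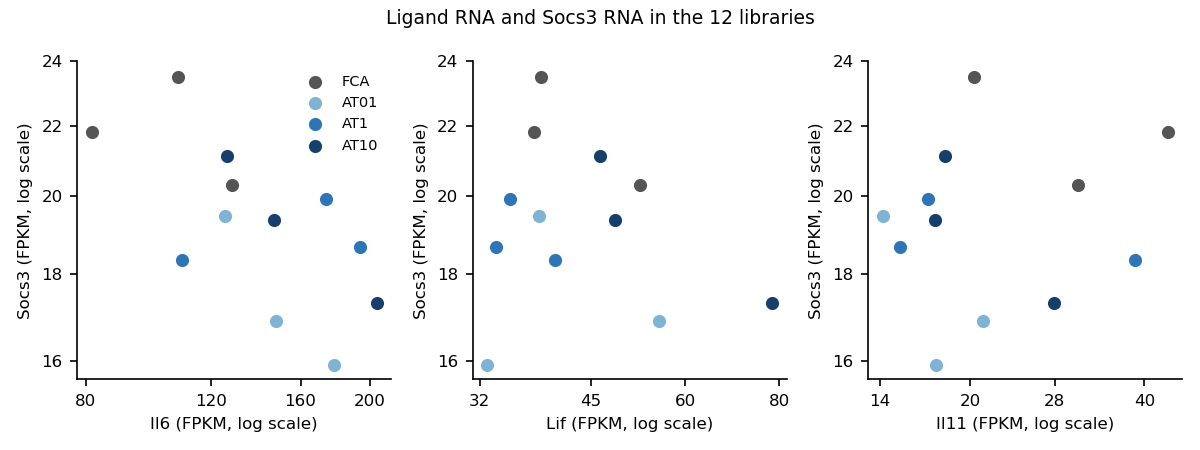
Socs3 against Il6, Lif and Il11 in the 12 libraries (FPKM, both axes logarithmic), with 1 dot for each library colored by group. The Il6 panel runs from 81.6 FPKM Il6 with 21.8 FPKM Socs3 in an FCA library to 204.6 FPKM Il6 with 17.3 FPKM Socs3 in an AT10 library (r = -0.66), while Lif and Il11 have r = -0.21 and 0.14.

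Of the other genes of the path, the ligands came first. In a list of 12 ligands, 10 had a record used here and 6 were tested. Clcf1 averaged 39.2 FPKM and Ctf1, which codes for cardiotrophin, 1.95 FPKM. Osm, the oncostatin M gene, averaged 0.0125 FPKM, so that the abundant chain Osmr stood beside almost no RNA of that ligand. Ctf2 and Il27 also averaged under 0.1 FPKM, and Ebi3 0.183 FPKM. None of the 6 tested ligands passed the adjusted p or the criterion in any comparison, and their median log2 fold change was -0.14 in TCDCA against FCA, beside 0.00306 over all records.

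Of 8 receptor genes, 5 were tested, the 4 members and Il11ra1, the specific chain of IL-11. Il11ra1 had 23.9 FPKM in FCA and 22.2 to 22.4 FPKM at the 3 doses, and its joint log2 fold change was -0.10 (SE 0.11, adjusted p = 0.731). The cells thus had about as much RNA of the IL-11 chain as of Il11 itself, unlike the pair Il6 and Il6r. Cntfr, Il27ra and Il31ra averaged under 0.1 FPKM.

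Of 22 signal transducers, 21 had a record used here, and of the 20 tested none passed the adjusted p or the criterion in any comparison. The most abundant were Akt1, a kinase of the PI3K branch, with 73.7 FPKM, and Map2k1, a kinase of the MAPK branch, with 51.2 FPKM. Akt1 was lower in AT1 (59.5 to 74.8 FPKM) than in FCA (75.1 to 82.3 FPKM) without overlap, at a log2 fold change of -0.27 (SE 0.10, adjusted p = 0.435), and Map2k1 overlapped FCA at each dose but was higher in AT1 (57.3 to 62.8 FPKM) than in AT01 (34.3 to 44.0 FPKM). Gab1, a docking protein that links gp130 to both branches, had the smallest p in TCDCA against FCA, with 1.70 FPKM in FCA (range 1.41 to 2.11) and 0.97 FPKM in AT10 (range 0.86 to 1.13). Its joint log2 fold change was -0.37 (SE 0.11, adjusted p = 0.306; exact permutation test, p = 0.0136). In AT1, 4 of 20 transducers were above FCA without overlap, among them the kinase genes Jak1 and Jak2, beside 9.87% of all records. Jak2 had 5.34 FPKM in FCA and 6.94 FPKM in AT1, a log2 fold change of 0.33 (SE 0.07, adjusted p = 0.362). In AT10 it was 1 of 20, Yes1, beside 10.7% of all records. On the lower side it was 2 of 20 in AT1, Akt1 and Grb2, beside 10% of all records. In AT10 it was 2 of 20, Gab1 and Grb2, beside 9.18%. In AT01, 3 of 20 were higher, beside 5.97%, and 2 of 20, Gab1 and Grb2, were lower, beside 8.06%. Grb2, an adaptor of the MAPK branch, was lower in all 9 TCDCA libraries than in FCA (53.7 to 56.2 FPKM), with a joint log2 fold change of -0.26 (SE 0.23, adjusted p = 0.666).

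Among 13 tested feedback and negative regulators, of 19 in the list and 17 with a record, none passed either rule. Adam17, whose protein sheds the IL-6 receptor from the cell surface, averaged 25.9 FPKM, more than Socs3, and its joint log2 fold change was 0.29 (SE 0.21, adjusted p = 0.603). Pias4, an inhibitor of activated STATs, was lower in all 9 TCDCA libraries than in any FCA library, with 6.28 FPKM in FCA and 4.91, 5.40 and 5.46 FPKM in AT01, AT1 and AT10. Its log2 fold change was -0.22 (SE 0.06, adjusted p = 0.306; exact permutation test, p = 0.00455, the smallest it can give). Pias4 was named for having the smallest p of this list in TCDCA against FCA, so its permutation p is that of a gene picked from the same values. Ranges lower in TCDCA than in FCA without overlap were found for 1.9% of all records. Ptpn2, a phosphatase that also limits this signal, differed the other way, with 5.81 FPKM in FCA and 6.97, 7.46 and 7.25 FPKM in AT01, AT1 and AT10 (joint log2 fold change 0.27, SE 0.09, adjusted p = 0.339; exact permutation test, p = 0.0182). The other inducible inhibitors were low, with 0.0675 FPKM for Socs1 and 0.593 FPKM for Cish.

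Of 40 genes known as targets of STAT3, 38 had a record used here and 33 were tested, with 0 past the adjusted p. Their median log2 fold change was -0.02 in AT01, -0.08 in AT1, -0.04 in AT10 and -0.05 in TCDCA against FCA, where that of all records lay between -0.01 and 0.02. In AT1, 8 of 33 (24.2%) were below FCA without overlap, beside 10% of all records, and these were Socs3, Fos, Myc, Ccnd1, Bcl2l1, Fosl2, Maff and Zfp36. In AT01 it was 8 of 33 (24.2%), beside 8.06%: Socs3, Fos, Myc, Pim3, Ccnd1, Il4r, Fosl2 and Zfp36. Both comparisons use the same FCA libraries. In AT10 it was 2 of 33 (6.06%), Bcl2l1 and C1r, beside 9.18%. Several of these genes are immediate early genes that many other signals also induce. Above FCA without overlap were 1 of 33 in AT1, 2 of 33 in AT01 and 0 of 33 in AT10, beside 9.87%, 5.97% and 10.7% of all records. The list shares Socs3, Il6st, Osmr and Stat3 with the members, and Zfp36 and Cebpb with the last list below, so these lists are not separate evidence.

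Fos, a subunit of AP-1, had the smallest p of these targets in TCDCA against FCA, with 10.7 FPKM in FCA (range 8.45 to 15.0) and 5.99, 5.26 and 7.14 FPKM in AT01, AT1 and AT10. Its joint log2 fold change was -0.69 (SE 0.17, adjusted p = 0.257; exact permutation test, p = 0.00909). The most abundant targets were the chemokine gene Ccl2, with 1625 FPKM, and Timp1, an inhibitor of metalloproteinases, with 953 FPKM. Their joint log2 fold changes were 0.21 (SE 0.21) and -0.02 (SE 0.08). Pim3, a survival kinase, was the one target to meet the criterion against FCA, in AT01, with 3.30 to 13.4 FPKM in FCA, 2.46 to 2.90 FPKM in AT01 and a difference of -1.34 on the log2 scale (SE 0.47, adjusted p = 0.720). In AT1 its highest library, at 15.5 FPKM, was above every FCA library. Between doses the criterion was met by Cebpb, a C/EBP transcription factor gene, with 0 to 2.05 FPKM in AT01, 0 to 1.17 FPKM in AT1 and 2.13 to 3.37 FPKM in AT10. Its difference was 1.53 between AT10 and AT1 (adjusted p = 0.513) and 1.37 between AT10 and AT01 (adjusted p = 0.867), on the log2 scale.

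Genes known to raise or lower Il6 in fibroblasts were the last list, with 21 genes, 18 records and 15 tested. The classical inducers were low, with averages of 0.00417 FPKM for Tnf, 1.62 FPKM for Il1b and 2.29 FPKM for Il1a. Il1a had 2.82 to 5.35 FPKM in AT10, above all AT1 and AT01 libraries (1.17 to 2.48 FPKM), but overlapped FCA. The receptor genes Ltbr and Tnfrsf1a were the most abundant, with 66.2 and 55.8 FPKM. Tnfrsf1a, the main TNF receptor, was lower in each TCDCA library (44.9 to 57.4 FPKM) than in FCA (57.9 to 62.0 FPKM), with a log2 fold change of -0.15 (SE 0.07, adjusted p = 0.422). Zfp36, whose protein speeds the decay of cytokine mRNAs, Il6 among its targets, had 38.1 FPKM in FCA and 29.1, 27.3 and 34.1 FPKM in AT01, AT1 and AT10. Its joint log2 fold change was -0.33 (SE 0.12, adjusted p = 0.339; exact permutation test, p = 0.0227). None of the 15 passed the adjusted p in any comparison or met the criterion against FCA, and their median log2 fold change was -0.15 in TCDCA against FCA. Between doses, Cebpb met the criterion as given above, and 4 of 15 were higher in AT10 without overlap against AT1 and 4 of 15 against AT01, beside 5.7% and 4.64% of all records. Against FCA, 4 of 15 were lower without overlap in AT1, 3 of 15 in AT01 and 1 of 15 in AT10, beside 10%, 8.06% and 9.18%. On the higher side it was 0 of 15, 1 of 15 and 0 of 15, beside 9.87%, 5.97% and 10.7%.

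**Figure D4:**
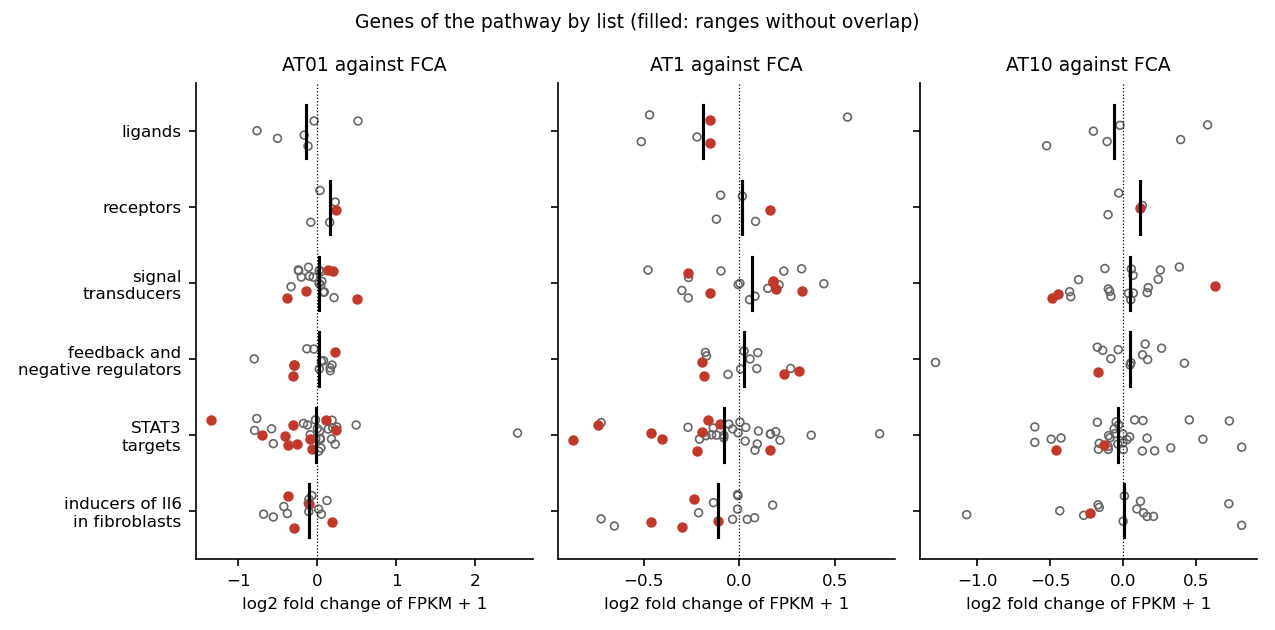
Log2 fold change of FPKM + 1 (horizontal axes, which differ in range) of the tested genes of 6 lists of the path, in AT01, AT1 and AT10 against FCA; each circle is a gene, filled where the ranges of the groups do not overlap, and the vertical bar is the median of the list. Among the STAT3 targets, 8 of 33 are filled on the lower side in AT01 and in AT1 and 2 of 33 in AT10; the open circle at 2.53 in AT01 is Cebpd, whose 3 AT01 libraries lay between 0.16 and 35.9 FPKM.

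Summed markers of cell types differed between the groups in part. Summed over the 5 smooth muscle and pericyte markers, FCA held between 314 and 415 FPKM, AT01 between 230 and 292, AT1 between 258 and 296 and AT10 between 164 and 310, so that every TCDCA library was below FCA. This sum is mostly Acta2, the one of the 5 to be lower without overlap, and in TCDCA against FCA 3 of the 5 had a log2 fold change above zero. The 13 FLS markers summed to 9804 to 10545 FPKM in FCA and 8187 to 9272 FPKM in AT10, with AT01 (9371 to 10045) and AT1 (9333 to 10099) between them. This sum is set by its most abundant genes, but most single FLS markers were lower as well. In TCDCA against FCA, 3 of 13 had a log2 fold change above zero, with a median of -0.15 beside 0.00306 over all records. In AT10 against FCA it was 2 of 13, with a median of -0.23 beside -0.0085. Without overlap in TCDCA against FCA, Vcam1 and Fap were higher and Thy1 was lower. The 7 macrophage markers, mostly Cd14, summed to 6.65 to 21.9 FPKM in FCA, 6.26 to 20.4 in AT01, 5.85 to 17.6 in AT1 and 18.6 to 21.7 in AT10. Chondrocyte markers, in the same order, summed to 39.5 to 43.2, 29.9 to 45.3, 41.4 to 45.6 and 27 to 42.1 FPKM, and endothelial and lymphocyte markers to at most 0.47 and 0.27 FPKM in any library. The part of these shifts in the values of Il6, Il11, Il6st and Socs3 was not tested.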

How the data were processed

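Poly(A) RNA from FLS was sequenced in 12 libraries, 3 in each of FCA, AT10, AT1 and AT01, grouped by the labels. The authors aligned reads with HISAT2 2.0.4 and assembled and quantified transcripts with StringTie 1.2.4 and Ballgown 2.6.0, and deposited FPKM to 2 decimals. The study reports the reads of each library, with the most in AT01 replicate 3. No counts per gene stand behind the values here, so counting error is unknown, and no interval for it is given. The genome build is not given in the sources used here.

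FPKM were transformed as log2(FPKM + 1), which understates the change of low genes. Records that averaged at least 1 FPKM were fitted with limma 3.58.1 in R 4.3.3 (lmFit, eBayes with trend), separately for each pair of groups, for the 9 TCDCA libraries against the 3 FCA libraries, for all 4 groups and for the dose rank. P-values were adjusted by Benjamini-Hochberg over all 11611 records. Two-sided exact permutation tests, and permutation tests of correlations with 100000 resamples, were run in Python 3.11.15 (SciPy 1.17.1, pandas 2.3.3, NumPy 2.4.6), and Matplotlib 3.10.9 drew the plots. The fits were tested on simulated data.

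The members and gene lists were chosen with earlier results of these data known. Named beside the members were, of each list, the 2 most abundant genes, any gene past the adjusted p or the study criterion against FCA, and the gene of smallest p in TCDCA against FCA; of each marker list, the highest and lowest gene. Other genes were named after their values were seen, and some results are not reported here. Alternatives were a pseudocount of 0.1, no filter, a filter at 10 FPKM, records above 0 throughout, 1 fit over all libraries, an unmoderated F test, median-of-ratios scaling, sums by gene name, a replicate block, correlations without the log, and each library left out. Promoter windows are from RefSeq (GRCr8), which matched 8 of 9 members.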

Additional observations from a re-analysis of the deposited data

Results flagged for a closer look

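Lif, with 78.3 FPKM in AT10 replicate 3, stood apart from the other TCDCA libraries, which lay between 32.7 and 55.3 FPKM: its gap to the next library was 0.504 of the whole range of the 9, over the critical value of Dixon's test at 95%. Chance alone marks about 1 group in 20. The test took FPKM without the log and pooled the 3 doses, although every AT10 library lay above every AT1 library in Lif. On the log2(FPKM + 1) scale used for the fits, the gap was a smaller share of the range and stayed under that critical value. Whether the library is marked therefore depends on the scale.

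A pair of records outside the comparisons above carried a member's name. The second record of Il6st, MSTRG.9112, had 7.67, 7.98 and 8.75 FPKM in AT10 against 4.77, 5.93 and 4.43 FPKM in FCA. The log2 fold change was 0.60 (SE 0.11, limma adjusted p = 0.158; exact permutation test, p = 0.1, the smallest possible). In AT1 the difference was 0.39 (SE 0.17) and in AT01 0.07 (SE 0.33). The main Il6st record, far higher in level, differed by 0.13 in AT10, and the ranges of that record overlapped.

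The second record of Lifr, MSTRG.9176, averaged under 1 FPKM and was fitted only without the filter. It had 0.74, 0.57 and 0.74 FPKM in FCA and 0.96, 0.94 and 1.07 FPKM in AT1, a log2 fold change of 0.24 (SE 0.07, limma adjusted p = 0.481; exact permutation test, p = 0.1). The difference was 0.09 in AT10 and 0.15 in AT01.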

How the results depend on the processing

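Under the alternatives, 0 of 1163 member values had an adjusted p under 0.05, the lowest being 0.233, and 1113 kept the sign of the reported value while 50 had the other sign. The joint log2 fold change of Il6 ranged from 0.38 (without FCA replicate 1) to 0.70, that of Socs3 from -0.28 to -0.18 and that of Il6st from 0.13 to 0.22 with 1 library left out. Il11 ranged from -0.86 to -0.32, and Lif turned to -0.06 without AT10 replicate 3. Il11 met the study criterion in AT01 against FCA without FCA replicate 2, so that this count ran from 0 to 1 with single libraries left out. The r of Il6 and Socs3 ran from -0.74 to -0.60. A filter at 10 FPKM gives no value for Il6r and Lifr. Median-of-ratios factors were 0.982 to 1.03. The study describes the replicate numbers as sets of repeated studies. No pairing by number was seen in the values: over 18 same-numbered pairs, deviations from the group means correlated at -0.105 to 0.0942 (median 0.0035). Of 12 libraries, 4 correlated best with their own number. With a replicate block, 0 members passed the adjusted p or the criterion in any comparison, and the r of Il6 and Socs3 was -0.59. At an unadjusted p under 0.05 the block gave 2 members in AT10, 0 in AT1 and 3 in AT01 against FCA. The share of all records past that threshold under the block is not given here, so these counts cannot be weighed against it. Counts per gene are unknown for these FPKM, so values near 1 FPKM, as of Il6r and Lifr, are the least certain.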

Other observations

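As a description, the 2 records whose log2(FPKM + 1) most resembled a member over the 12 libraries were listed by Pearson's r, with no test, since the largest of so many values is high in any data. For Lif they were the chemokine gene Cxcl3 (r = 0.95, 169 to 494 FPKM) and Nfkbiz, a regulator of NF-kB target genes (r = 0.94, 10.8 to 20.5 FPKM). For Il6 they were Dtl (0.91) and Mab21l1 (0.89), and for Il11 they were Procr (0.91) and Pnpt1 (0.90). For Socs3 they were Tpgs1 (0.93) and LOC100360087 (0.91). Il6st was most like Galk2 (0.94) and Rars (0.93), and Stat3 most like Lgmn (0.95) and Itgb5 (0.92). For the low or variable receptor genes the values were smaller, with Pus3 (0.87) and Hypk (0.82) for Osmr and Rap1gds1 (0.88) and AABR07005549.1 (0.87) for Il6r. All of these share the libraries and their composition.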
